A study of Mus musculus with 24 samples.

Results

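The nuclear genes for subunits of the 5 respiratory complexes were examined for binding of MYT1L in mouse cortex. They were taken as all nuclear protein-coding genes of build mm10 whose symbols begin with Nduf followed by a subunit letter and a number (complex I), are Sdha to Sdhd (complex II), or begin with Uqcr (complex III), Cox4 to Cox8 (complex IV) or Atp5 (complex V). This gave 84 genes of 21938, with 37 in complex I, 4 in complex II, 8 in complex III, 18 in complex IV and 17 in complex V. A second gene model named Atp5o, a read-through whose start is marked as not found, was left out. The symbols follow the annotation, so 2 genes placed in complex I by name, Ndufa4 and its paralog Ndufa4l2, are now regarded as complex IV proteins, and Atp5s is an ATP synthase coupling factor rather than a structural subunit.

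MYT1L, a zinc finger protein of postmitotic neurons, is best known as a transcriptional repressor of non-neuronal genes. CUT&RUN was applied to cortical cells of mice whose strain the labels give as C57BL/6J, while the methods describe a mutant line made and bred on C57BL/6N. In this method a nuclease tethered through an antibody cuts out the DNA around the bound protein. The 4 groups were wild-type (WT) cortex of the embryo at E18.5, WT prefrontal cortex of newborns at P0, WT prefrontal cortex of adults of 3 months, and prefrontal cortex of adult heterozygotes (HET), which carry a germline frameshift deletion in a single Myt1l allele, with no other agent or transgene in the labels. Each group had 3 MYT1L libraries and 3 libraries with control IgG, 24 in all, and the sex of the animals is given as unknown. Sequencing run 1 held E18.5 and P0 and run 2 held both adult groups. Between the younger and the adult groups, effects of stage and of run therefore cannot be told apart. The study's methods name prefrontal cortex also for E18.5, and the titles of some adult libraries read Myt2l or Myt3l and were taken here as MYT1L. The data are 1 list of bound sites per group, merged over its 3 MYT1L libraries. The lists give the position of each site but neither its height nor a score. No value below therefore has a replicate error, no difference was tested, and the depth is unknown. The lists hold no expression, so the tissue could not be checked against marker levels.

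Oxidative phosphorylation passes electrons from NADH (complex I) and succinate (complex II) through ubiquinol and cytochrome c (complexes III and IV) to oxygen, and complex V, the ATP synthase, uses the proton gradient so built to make ATP. Neurons draw most of their ATP from this pathway, since ion pumping and synaptic transmission are costly. Most subunits are encoded in the nucleus, their genes sit largely in CpG island promoters, and factors such as NRF1, GABPA (an ETS factor) and YY1 are known to bind many of them. A few complex IV subunits also exist as isoforms restricted to muscle, lung or testis.

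A gene was called where a site of a list lay within 1 kb of any of its annotated starts. Of the 84 genes, 47 (56.0%) were called at E18.5 and 61 (72.6%) at P0, and among the adult lists 18 (21.4%) in WT and 16 (19.0%) in HET. By the same rule 26.7% of all nuclear protein-coding genes were called at E18.5 and 40% at P0, and 11.8% and 9.01% in the WT and HET adults. The share of subunit genes was thus 2.09, 1.82, 1.82 and 2.11 times that of all genes, in lists that hold from 14477 sites (E18.5) to 56937 sites (adult HET). These ratios depended on the distance: within 5 kb they were 1.94, 1.66, 1.42 and 1.22, and within 500 bp 2.19, 1.90, 1.91 and 2.54. In all, 67 of the 84 genes were called in at least 1 list, 18 in 1 list alone, 27 in 2, 18 in 3 and 4 in all 4. Of the subunit genes 20.2% were called in no list, beside 53.5% of all genes, and 4.76% in all 4, beside 2.3%. Of the 18 called in 1 list alone 15 were called at P0, which is 17.9% of the subunit genes, beside 13.1% of all genes.

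By complex, the share called at E18.5 was 59.5% for complex I, 50% for II, 62.5% for III, 38.9% for IV and 64.7% for V. At P0 it was 75.7%, 75%, 87.5%, 55.6% and 76.5% in the same order. Complex IV, the cytochrome c oxidase, had the lowest share at both younger stages, 1.45 and 1.39 times that of all genes. This order was lost among CpG-rich promoters (defined below), where 5 of 9 complex IV genes (55.6%) were called at E18.5, beside 55.2% in complex I and 50% in II, and 7 of 9 (77.8%) at P0, beside 75.9% in I, 75% in II and 71.4% in V. Without its 7 tissue-restricted isoforms, 7 of 11 complex IV genes (63.6%) were called at E18.5 and 9 of 11 (81.8%) at P0. In adult WT the counts were 9 of 37 for complex I, 0 of 4 for II, 2 of 8 for III, 2 of 18 for IV and 5 of 17 for V. In adult HET they were 7, 0, 1, 4 and 4. Complex IV in adult WT, at 11.1%, was at the level of all genes, and complex II, the succinate dehydrogenase, had no called member in either adult list. With 4 to 37 genes per complex a single gene moves these shares by a few percentage points at least, by 12.5 in complex III and by 25 in complex II. Differences between complexes were not tested. Keeping only sites wider than the median of their list left 23 of the 84 genes called at E18.5 (27.4%, beside 15.4% of all genes). Of these, 10 were in complex I (27.0%), 1 in II (25%), 2 in III (25%), 5 in IV (27.8%) and 5 in V (29.4%), so that complex IV was not the lowest at E18.5. At P0 the same setting left 52 genes (61.9%, beside 30.5% of all genes). There 23 were in complex I (62.2%), 3 in II (75%), 7 in III (87.5%), 8 in IV (44.4%) and 11 in V (64.7%), so that complex IV was still the lowest at P0.

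**Figure D1:**
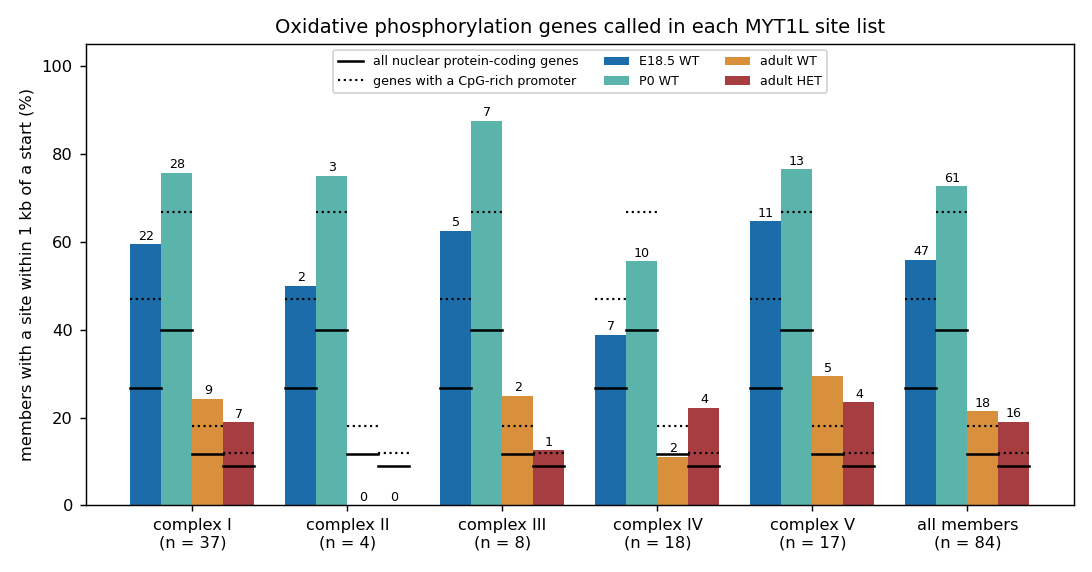
Bars give the share of genes of each complex with a MYT1L site within 1 kb of a start, in percent, with the number of genes called above each bar, for the 4 site lists. Solid lines mark all nuclear protein-coding genes and dotted lines genes with a CpG-rich promoter in the same list: 61 of 84 subunit genes were called at P0 and 16 in adult HET, and complex IV lies lowest at E18.5 and P0.

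The genes called in both adult lists numbered 7 (8.33%, beside 3.27% of all genes) and those called in all 4 lists 4 (4.76%, beside 2.3%). The 7 were Ndufb4, Ndufs8, Ndufv1, Uqcr10, Cox6a1, Atp5b and Atp5g1. At 5 of them, Ndufs8, Ndufv1, Cox6a1, Atp5b and Atp5g1, the WT and the HET site overlapped, and at Ndufb4 and Uqcr10 they did not. At each of these 5 the midpoint of both adult sites was upstream of the start, at -199 to -39 bp.

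**Figure D2:**
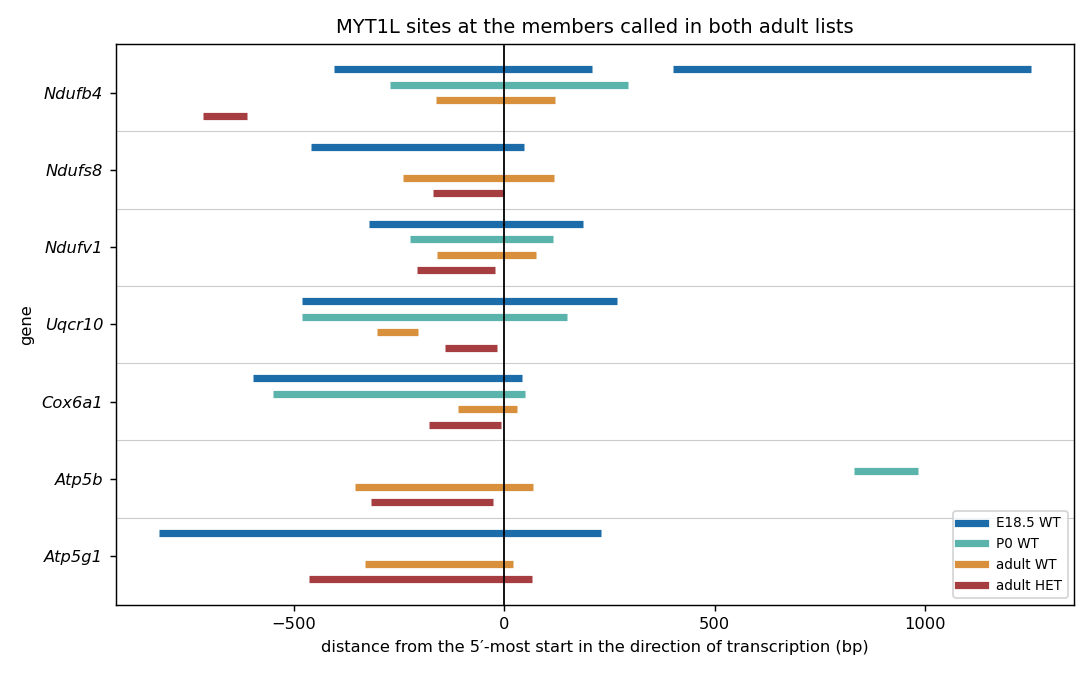
Horizontal bars give the extent of each MYT1L site at the 7 genes called in both adult lists, in bp from the 5′-most start in the direction of transcription (0, black line), coloured by list. At Ndufv1 and Cox6a1 the bars of all 4 lists cover the same upstream stretch and are longest at E18.5, while Ndufs8 and Atp5g1 have no P0 bar and the P0 bar of Atp5b begins 832 bp downstream.

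The sequences below are the stretches that sites of several lists had in common just upstream of these 7 starts, cut where an annotated exon begins and at 300 bases. They are from the mouse reference GRCm38.p6 (RefSeq), the build that corresponds to mm10, and are written 5′ to 3′ on the strand of the gene. Capitals mark matches, on either strand, to 7 words: AAAGTT (the core of the MYT1L motif), GCGCANGCG (NRF1), CCGGAAG (ETS factors), AAGATGGC (YY1), GGGCGG (SP and KLF factors), TGACGT (CREB and ATF factors) and CCAAT (NF-Y), the last added after the stretches had been read. The Ndufv1 stretch (chr19:4012828-4012967, minus strand, 22 to 161 bp upstream of the start) and the Cox6a1 stretch (chr5:115348989-115349090, minus strand, 8 to 109 bp upstream) were covered in all 4 lists. Those of Ndufs8 (chr19:3912775-3912943, minus strand, 1 to 169 bp upstream) and Atp5g1 (chr11:96075671-96075970, minus strand, 1 to 300 bp upstream) were covered at E18.5 and in both adult lists. The Atp5b stretch (chr10:128082971-128083246, plus strand, 27 to 302 bp upstream) was covered in the adult lists alone, that of Ndufb4 (chr16:37654454-37654616, minus strand, 1 to 163 bp upstream) in the 3 WT lists, and that of Uqcr10 (chr11:4704359-4704483, minus strand, 17 to 141 bp upstream) at E18.5, P0 and in HET.
Ndufv1: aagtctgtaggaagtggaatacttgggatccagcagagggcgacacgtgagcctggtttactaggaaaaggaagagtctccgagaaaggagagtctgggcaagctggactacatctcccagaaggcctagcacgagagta
Cox6a1: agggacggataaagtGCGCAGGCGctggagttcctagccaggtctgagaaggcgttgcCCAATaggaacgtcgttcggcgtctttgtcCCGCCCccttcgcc
Ndufs8: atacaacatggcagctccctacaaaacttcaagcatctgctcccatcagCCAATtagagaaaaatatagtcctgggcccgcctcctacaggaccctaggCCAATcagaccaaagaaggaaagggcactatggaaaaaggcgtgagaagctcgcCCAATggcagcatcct
Atp5g1: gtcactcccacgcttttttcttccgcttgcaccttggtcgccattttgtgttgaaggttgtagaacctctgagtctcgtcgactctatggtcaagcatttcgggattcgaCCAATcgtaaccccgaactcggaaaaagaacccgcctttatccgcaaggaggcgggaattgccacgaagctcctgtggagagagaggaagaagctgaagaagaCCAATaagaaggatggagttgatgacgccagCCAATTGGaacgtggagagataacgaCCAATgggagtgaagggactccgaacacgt
Atp5b: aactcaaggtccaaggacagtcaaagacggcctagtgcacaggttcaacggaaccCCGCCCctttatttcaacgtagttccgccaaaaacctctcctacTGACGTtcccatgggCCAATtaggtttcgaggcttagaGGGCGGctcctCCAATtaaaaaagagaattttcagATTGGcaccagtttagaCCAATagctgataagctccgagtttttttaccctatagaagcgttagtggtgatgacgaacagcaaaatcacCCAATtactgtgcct
Ndufb4: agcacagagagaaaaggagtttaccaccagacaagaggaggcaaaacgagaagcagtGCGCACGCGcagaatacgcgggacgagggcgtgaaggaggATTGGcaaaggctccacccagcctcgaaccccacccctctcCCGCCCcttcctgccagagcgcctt
Uqcr10: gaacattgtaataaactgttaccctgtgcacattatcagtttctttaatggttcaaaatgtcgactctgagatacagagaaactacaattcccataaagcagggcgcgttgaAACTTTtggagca

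Only the Uqcr10 stretch held AAAGTT, on the opposite strand, its first base at -29 bp from the start. Cox6a1 and Ndufb4 each held 1 NRF1 word, at -94 and -106 bp, and 1 GGGCGG word on the opposite strand, at -21 and -25 bp. Atp5b held TGACGT at -203 bp and GGGCGG in both orientations. No ETS or YY1 word was found in the 7 stretches. CCAAT was found in 5 of them, with 5 matches in Atp5b, 5 in Atp5g1, 3 in Ndufs8 and 1 each in Cox6a1 and Ndufb4. The Ndufv1 stretch, covered in every list, held none of the 7 words.

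Promoter type went with these shares. A CpG-rich promoter, here an observed over expected CpG ratio above 0.6 with GC above 50% from 500 bp before to 500 bp after the 5′-most start, was found at 62 of the 84 genes (73.8%) and at 46.0% of all genes. Among genes with such promoters 46.9%, 66.9%, 18.2% and 11.8% were called in list order (E18.5, P0, adult WT, adult HET), and of the 62 subunit genes 36 (58.1%), 48 (77.4%), 12 (19.4%) and 14 (22.6%) were called. In adult WT the subunit genes were therefore close to other CpG-rich genes. The remaining 22 subunit genes were called 11 (50%), 13 (59.1%), 6 (27.3%) and 2 (9.09%) times in the same order, while all genes without a CpG-rich promoter were called at 9.61%, 17.1%, 6.41% and 6.61%. Several of these 22 lie just under the limits, such as Ndufa5, a complex I accessory subunit with a ratio of 0.591 and GC of 48%. Of the 5 genes with a ratio below 0.3, 4 were called in no list, namely Ndufa4l2, Cox6a2, Cox7a1 and Cox8b, and Atp5j2, the f subunit of the ATP synthase, with a ratio of 0.220, was called at both younger stages. The part of promoter type in the calls was not tested.

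Many subunit genes share a promoter region. Of the 84, 27 (32.1%) had the start of another protein-coding gene within 1 kb, against 12.2% of all genes. Each had such a start on the opposite strand, although the nearest start to that of Ndufa13, Yjefn3 at 154 bp, is on the same strand. A site between 2 such starts cannot be assigned to either gene. Of the 27 genes with a neighbour 19, 23, 6 and 4 were called in list order, which is 70.4%, 85.2%, 22.2% and 14.8% beside 57.5%, 69.3%, 24.9% and 15.4% of all genes with a neighbour. In both adult lists these subunit genes were thus near the share of all genes of that kind. Of the 57 without one, 28, 38, 12 and 12 were called, which is 49.1%, 66.7%, 21.1% and 21.1% beside 22.5%, 35.9%, 9.99% and 8.11% of all genes without a neighbour. Named pairs include Ndufa7 with Rps28, a cytosolic ribosomal protein gene whose start lies 10 bp away, Ndufs6 with Mrpl36 at 29 bp, Ndufb5 with Mrpl47 at 76 bp, Sdhd with Timm8b at 98 bp and Atp5j with Gabpa at 379 bp. Mrpl36 and Mrpl47 encode mitochondrial ribosomal proteins, Timm8b a mitochondrial import chaperone and Gabpa the ETS factor itself.

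The most frequent pattern was a call at both younger stages and in neither adult list, found for 24 genes (28.6%, beside 14.9% of all genes). Another 15 were called at P0 alone (17.9%, beside 13.1%), 8 at E18.5, P0 and in adult WT (9.52%, beside 4.96%), and 7 at E18.5, P0 and in adult HET (8.33%, beside 2.33%). In total 40 genes (47.6%, beside 29% of all genes) were called at a younger stage and in neither adult list, and 43 (51.2%, beside 24.5%) at both younger stages. A call at P0 without one at E18.5 was found for 18 genes (21.4%, beside 15.5% of all genes), among them Cox5a and Cox5b, which surround the catalytic core of complex IV, Uqcrfs1, the Rieske iron-sulfur protein of complex III, and Sdhb, the iron-sulfur subunit of complex II. The reverse, E18.5 and not P0, held for 4 genes (4.76%, beside 2.29%), among them Ndufs1, Ndufs8 and Atp5g1. Ndufs1 and Ndufs8 encode core subunits of complex I that carry iron-sulfur clusters, and Atp5g1 encodes a c subunit of the ATP synthase rotor.

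**Figure D3:**
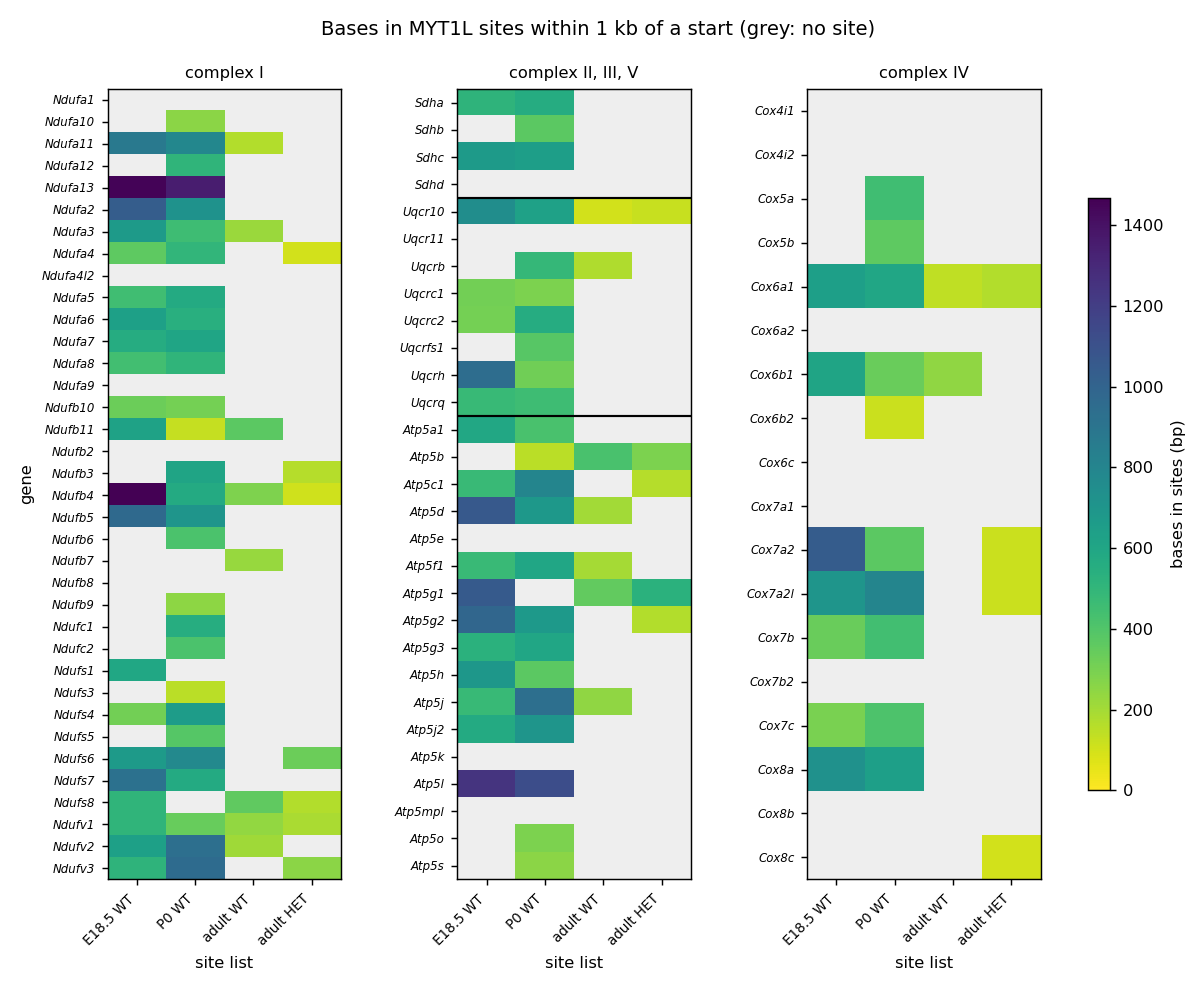
Each row is a subunit gene (not every gene is drawn) and each column a site list, and the colour gives the bases in sites within 1 kb of a start, in bp, with grey for no site. Most coloured cells lie in the E18.5 and P0 columns, adult cells are lighter, and 17 rows have no site in any list.

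Among the 7 nuclear core subunits of complex I, which carry the flavin and the iron-sulfur clusters, 6 were called at E18.5, 4 at P0, 4 in WT adults and 2 in HET adults. These counts are 85.7%, 57.1%, 57.1% and 28.6%, beside 26.7%, 40%, 11.8% and 9.01% of all genes. Ndufv1, which binds NADH and the flavin, had 510 bp in sites at E18.5, 342 at P0, 238 in WT adults and 187 in HET adults. Ndufv2, its iron-sulfur partner, had 635, 934 and 209 bp in the 3 WT lists and no site in HET. Both were therefore called in every WT list. Ndufs8, a ferredoxin-like subunit, had 506 bp at E18.5, 361 in adult WT and 169 in adult HET, and at P0 its nearest site lay 60598 bp away. Ndufs1, the largest subunit, had a single site of 593 bp at E18.5, shared with the start of Eef1b2 at 3 bp. Ndufs7 had 923 bp at E18.5 and 572 at P0, and Ndufs3 a site of 151 bp at P0 alone, 481 bp from its start. Together with the c subunits of the ATP synthase (3 against 2 of 3 genes), these core subunits were the only groups of subunits with more calls at E18.5 than at P0. The difference is of very few genes and was not tested. It is not particular to subunits, since pyruvate dehydrogenase and citric acid cycle genes had 10 against 8 of 17.

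Of the 28 accessory subunits of complex I, which surround the core and assist its assembly and stability, 15, 23, 5 and 4 were called in list order. Ndufb4 was called in all 4 lists, with 1468 bp in 2 sites at E18.5, the most of any subunit gene, 568 at P0, 285 in WT adults and 105 in HET. Its HET site lay 612 bp upstream of the start and overlapped no site of the other lists. Ndufa13, also known as GRIM-19, had 1453 bp at E18.5 and 1353 at P0 in several sites, the nearest 356 and 432 bp from its start, and no site in either adult list. Ndufb11, a membrane arm subunit, had the most among complex I genes in adult WT, 370 bp, at a start 3 bp from that of Rbm10. Ndufs6, which holds zinc, had 667 bp at E18.5, 776 at P0 and, in 2 sites, 330 in HET, the most of complex I there. Ndufb7 was the only subunit gene called in adult WT and in neither younger list (1.19%, beside 2.02% of all genes), through a 225 bp site that lay 27 bp from its start, and its nearest younger site was 27439 bp away.

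In complex II, Sdha, the flavoprotein, had 515 bp at E18.5 and 557 at P0, and Sdhc, a membrane anchor, 670 and 644 bp, the most of the complex. Sdhb had 370 bp at P0 alone, and Sdhd, the other anchor, no site in any list. Sdha shares its promoter with Ccdc127 at 29 bp, and Sdhb was the only called member of the complex without a neighbouring start.

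In complex III both core proteins, Uqcrc1 and Uqcrc2, were called at E18.5 (313 and 305 bp) and P0 (287 and 559 bp) and in neither adult list. Uqcr10, a small subunit, was called in all 4 lists, with 750 bp at E18.5, 629 at P0, 98 in WT adults and 125 in HET. Its 2 adult sites did not overlap each other: the WT site lay 205 bp and the HET site 17 bp from the start, and both fell inside the E18.5 and P0 sites. Uqcrh, the hinge protein, had the most at E18.5, 941 bp in 2 sites, and Uqcrb, the quinone-binding protein, the most in adult WT, 177 bp. Uqcr11 had no site.

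In complex IV the calls lay mostly at the widely expressed isoforms rather than the tissue-restricted ones. Of 7 isoforms found in most tissues that have a tissue-restricted counterpart (Ndufa4, Cox4i1, Cox6a1, Cox6b1, Cox7a2, Cox7b and Cox8a), 6 were called at each younger stage, 2 in WT adults and 3 in HET adults. Of the 8 restricted isoforms none was called at E18.5 or in adult WT, 1 at P0 (Cox6b2, a testis isoform, 120 bp) and 1 in HET (Cox8c, also of testis, 98 bp). Cox4i2 (lung), Cox6a2, Cox7a1 and Cox8b (heart and skeletal muscle), Cox7b2 (testis) and Ndufa4l2 (induced by hypoxia) had no site, and all 8 restricted isoforms lack a CpG-rich promoter, while Cox6b1 and Cox7b are the only others of the 15 that lack one. The restricted isoforms were called at 0%, 12.5%, 0% and 12.5% in list order. All genes without a CpG-rich promoter were called at 9.61%, 17.1%, 6.41% and 6.61%. The contrast between isoforms was not tested apart from promoter type. Among the widely expressed isoforms Cox4i1, the regulatory subunit IV, had no site in any list although its promoter is CpG-rich and its nearest site, at P0, was 6940 bp away. Without the restricted isoforms, 76 subunit genes remain, of which 61.8%, 78.9%, 23.7% and 19.7% were called in list order.

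Cox6a1, the widely expressed form of subunit VIa, was called in all 4 lists, with 641 bp at E18.5, 600 at P0, 141 in WT adults and 171 in HET, the most of complex IV in HET. Cox7a2 had the most at E18.5, 1038 bp, and Cox7a2l, which helps to join complexes III and IV into supercomplexes, the most at P0, 798 bp. Both also had a small HET site at the start (116 and 115 bp) and none in adult WT. Cox6b1, which bridges the dimer, had 611, 337 and 246 bp in the 3 WT lists and none in HET. Cox8c was the only subunit gene called in HET and in no WT list (1.19%, beside 2.27% of all genes), through a site of 98 bp that lay 730 bp from its start, the farthest of all HET calls.

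In complex V, 3 of 5 genes of the F1 head and central stalk were called at E18.5, 4 at P0 and 2 in each adult list. Atp5b, the catalytic beta subunit, had 424 bp in adult WT, the most of any subunit gene in that list, and 290 bp in HET, the former holding the start and the latter ending 27 bp before it. Its P0 site of 152 bp lay 832 bp away, and the nearest E18.5 site was 9231 bp away. Atp5d, the delta subunit, had 1056, 685 and 206 bp in the WT lists and none in HET, and Atp5a1 (alpha) 585 and 424 bp at E18.5 and P0. Atp5e (epsilon) had no site. The c-ring, the rotor in the membrane, is encoded by 3 genes for the same mature protein: Atp5g1 had 1050 bp at E18.5, 353 in adult WT, 531 in HET (the most of any subunit gene there) and no site at P0, Atp5g2 had 982 and 677 bp at E18.5 and P0 and 171 in HET, and Atp5g3 had 529 and 597 bp at E18.5 and P0 only.

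The 4 peripheral stalk genes (Atp5f1, Atp5h, Atp5j and Atp5o), which hold the head still against the rotor, were called 3, 4, 2 and 0 times in list order. Atp5f1 had 471, 598 and 198 bp and Atp5j 479, 934 and 241 bp in the WT lists, in each list at a distance of 499 bp or more from the start for Atp5f1. The sites of Atp5j also lay within 1 kb of the start of Gabpa and those of Atp5f1 within 1 kb of the start of Wdr77. No site of Atp5f1 held its own start, and Wdr77 starts 730 bp from it. The Atp5f1 calls therefore cannot be assigned to Atp5f1 rather than to Wdr77. Atp5l, the g subunit, had the most of the complex at both younger stages, 1247 and 1121 bp, and no adult site.

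Over all 84 promoters, read from 250 bases before to 50 after the 5′-most start, AAAGTT was present in 15 (17.9%), against 13.8% of all promoters and 9.44% of the CpG-rich ones. Of these 15 genes 11 were called at E18.5 (73.3%) and 12 at P0 (80%), against 52.2% and 71.0% of the 69 genes without the word. In adult WT the shares were 20% and 21.7%, and in HET 26.7% and 17.4%. The NRF1 word was in 17 promoters (20.2%, against 8.64% of all and 15.8% of CpG-rich promoters), 7 of them among the 17 genes of complex V. The YY1 word was in 8 (9.52%, against 2.98% and 4.75%), 6 of them in complex I. The ETS word was in 15 (17.9%, against 11.2% and 18.9%), TGACGT in 10 (11.9%, against 8.76% and 13.1%), GGGCGG in 35 (41.7%, against 44.9% and 72.8%) and CCAAT in 32 (38.1%, against 38.8% of all promoters). At E18.5 70.6% of genes with the NRF1 word were called and 52.2% of those without it. For ETS, YY1 and CCAAT the shares were 60% and 55.1%, 62.5% and 55.3%, and 65.6% and 50%. For GGGCGG and TGACGT they were 48.6% and 61.2%, and 50% and 56.8%. At P0 they were 76.5% and 71.6% (NRF1), 74.3% and 71.4% (GGGCGG), 90% and 70.3% (TGACGT), and 78.1% and 69.2% (CCAAT). For ETS and YY1 they were 60% and 75.4%, and 50% and 75%. A higher share at both stages was thus not particular to AAAGTT. None of these shares was tested.

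The sites themselves were small, and that they lay within 1 kb of a start was set by the rule. The 52 sites at subunit genes at E18.5 had a median width of 589 bp, the 79 at P0 370 bp, the 18 in adult WT 224 bp and the 18 in HET 159 bp. All sites within 1 kb of a protein-coding start had medians of 630, 349, 215 and 125 bp, so widths differed between lists far more than between subunit genes and other genes. Sites that held a start of any protein-coding gene, a neighbour's included, made up 88.5% at E18.5, 73.4% at P0, 77.8% in WT adults and 38.9% in HET. For all promoter sites these shares were 78.9%, 51.8%, 45.1% and 22.3%. The median midpoint lay at -101.5, -41, -65.5 and -68.5 bp from the nearest start in list order, negative values being upstream, and between 67.1% (P0) and 77.8% (adult WT) of midpoints lay within 250 bp of it. Midpoint positions were not counted for all promoter sites. Sites with another gene's start within 1 kb numbered 24 of 52, 33 of 79, 6 of 18 and 5 of 18.

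**Figure D4:**
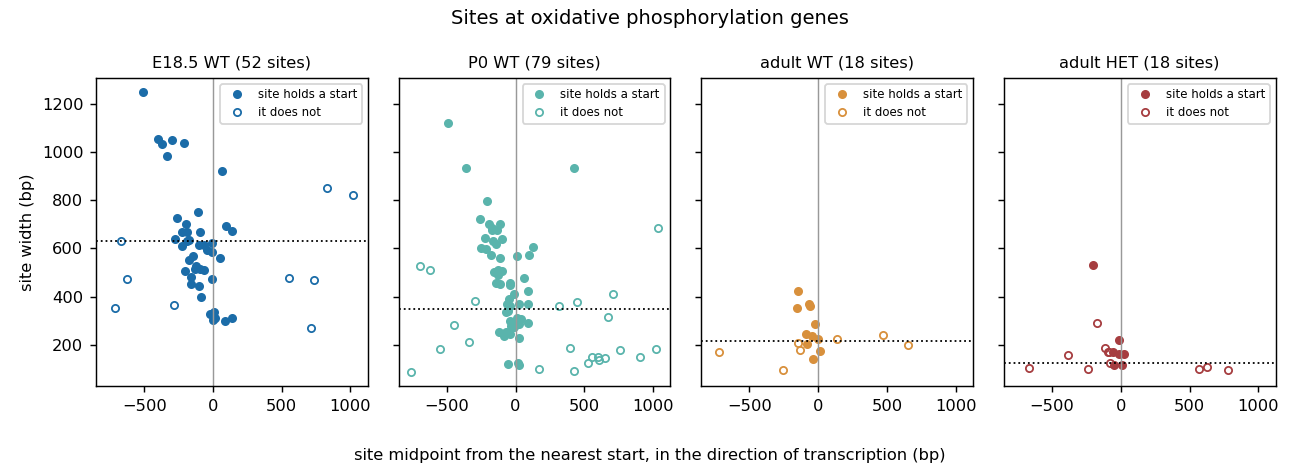
Each point is a site at a subunit gene, with its midpoint from the nearest start in the direction of transcription (bp) against its width (bp), in 1 panel per list. Filled points are sites that hold a start of the subunit gene itself, and open points do not. The dotted line is the median width of all sites within 1 kb of a protein-coding start. The points cluster just upstream of 0, and the median width goes from 589 bp at E18.5 to 159 bp in adult HET.

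The AAAGTT core lay within 75 bp of the midpoint at 5 of the E18.5 sites, 7 of the P0 sites, none of the adult WT sites and 3 of the HET sites (9.62%, 8.86%, 0% and 16.7%). Among all promoter sites the shares were 9.56%, 10.5%, 7.86% and 8.79%. With 18 sites in each adult list these counts cannot separate the subunit genes from other genes. The 3 HET sites were at Ndufs6, Uqcr10 and Cox8c. The cores of Sdhc, Cox6a1 and Cox8c, none of which touches an annotated exon, are shown with 20 bases on each side on the strand of the gene and the core in capitals. The Sdhc core (chr1:171150834-171150879, minus strand) was near the midpoint at both E18.5 and P0, that of Cox6a1 (chr5:115349162-115349207, minus strand) at P0, and that of Cox8c (chr12:102900024-102900069, plus strand) in HET.
Sdhc: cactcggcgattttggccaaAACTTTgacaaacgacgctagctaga
Cox6a1: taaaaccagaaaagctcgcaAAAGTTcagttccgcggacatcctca
Cox8c: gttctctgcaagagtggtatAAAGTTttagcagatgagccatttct

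Sites at subunit genes recurred between lists. Of the 52 E18.5 sites 44 (84.6%) overlapped a P0 site by 1 bp or more, and of the 79 P0 sites 49 (62.0%) overlapped an E18.5 site, beside 88.4% and 47.5% of all promoter sites. Of the 18 adult WT sites 15 (83.3%) lay on an E18.5 site and 12 (66.7%) on a P0 site, beside 59.2% and 53.0% of all promoter sites. Of the 18 HET sites 12 (66.7%) lay on an E18.5 site and 12 on a P0 site, beside 43.8% and 41.4%. Counting either younger list, 16 of 18 adult WT sites lay on a younger site, the exceptions being Ndufb7 and Atp5b, and 14 of 18 HET sites, the exceptions being sites at Ndufb4, Ndufs6, Cox8c and Atp5b. Between the adult lists 5 of 18 sites were shared in each direction (27.8%, beside 17.6% of WT and 23.1% of HET promoter sites). The WT and HET lists thus called 18 and 16 subunit genes of which 7 were the same genes, and each placed most of its sites on stretches that a younger list also covered. For all promoter sites the share on either younger list was not counted, and 59.2% of the WT ones lay on an E18.5 site.

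Most called genes had a site well inside the 1 kb limit, and with a limit of 500 bp 47, 59, 16 and 14 genes were called. The called gene with the farthest nearest site was Atp5f1 at E18.5 (499 bp), Atp5b at P0 (832 bp), Ndufa11 in adult WT (635 bp) and Cox8c in HET (730 bp). The nearest genes outside were Cox5a at E18.5 (2407 bp), Ndufa4l2 at P0 (1730 bp), Atp5h in adult WT (1131 bp) and Atp5k in HET (1666 bp). The 17 genes called in no list (20.2%, beside 53.5% of all genes) were Ndufa1, Ndufa4l2, Ndufa9, Ndufb2 and Ndufb8 of complex I by name, Sdhd, Uqcr11, Cox4i1, Cox4i2, Cox6a2, Cox6c, Cox7a1, Cox7b2 and Cox8b, and Atp5e, Atp5k and Atp5mpl. Of these 10 have a CpG-rich promoter and 6 are tissue-restricted isoforms, and their nearest site in any list was between 1666 bp (Atp5k) and 45314 bp (Ndufa1) away.

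Other genes of the pathway were counted in the same way, to be read beside 26.7%, 40%, 11.8% and 9.01% of all genes in list order. Of 49 assembly factors, which build the complexes without being part of them, 25 (51.0%), 41 (83.7%), 10 (20.4%) and 11 (22.4%) were called in list order. By complex the counts in list order were 5, 12, 2 and 4 of 15 for complex I, 1, 3, 1 and 0 of 4 for II, 4, 5, 1 and 3 of 6 for III, 14, 19, 5 and 3 of 21 for IV, and 1, 2, 1 and 1 of 3 for V. For complex IV the factors had 66.7%, 90.5%, 23.8% and 14.3% called, where its subunits without the restricted isoforms had 63.6%, 81.8%, 18.2% and 27.3%. Cox20, a chaperone of subunit II, had 1324, 1981, 254 and 94 bp in sites, and Cox14, Coa3 and the complex V factor Atpaf2 were also called in all 4 lists. The 5 subunits or partners whose symbols fall outside the rule were called 1, 4, 0 and 0 times. They include Cycs (cytochrome c) and Cyc1 (cytochrome c1), both called at P0 alone, with 718 and 173 bp.

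Of 16 regulators of mitochondrial biogenesis 11 were called at E18.5, 13 at P0, 6 in WT adults and 1 in HET (68.75%, 81.25%, 37.5% and 6.25%). The HET share was below the 9.01% of all genes. Pprc1, a coactivator related to PGC-1, had 1371, 1303 and 523 bp in the WT lists and none in HET, and Tfb1m, a mitochondrial rRNA methyltransferase, was the regulator called in HET, with 143 bp. Nrf1 and Yy1 were called at E18.5 and P0 alone. Of 17 pyruvate dehydrogenase and citric acid cycle genes 10, 8, 5 and 3 were called (58.8%, 47.1%, 29.4% and 17.6%). The P0 share was near the 40% of all genes. Pdhb, the beta subunit of pyruvate dehydrogenase, had 558 bp at E18.5, 382 in adult WT and 270 in HET and no site at P0, the pattern of Ndufs8 and Atp5g1. The 78 mitochondrial ribosomal protein genes were called 41, 62, 11 and 8 times (52.6%, 79.5%, 14.1% and 10.3%), and the 80 cytosolic ribosomal protein genes 61, 68, 22 and 14 times (76.3%, 85%, 27.5% and 17.5%). Subunit genes thus lay below cytosolic ribosomal protein genes in the 3 WT lists and at 19.0% against 17.5% in HET, and these differences were not tested.

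**Figure D5:**
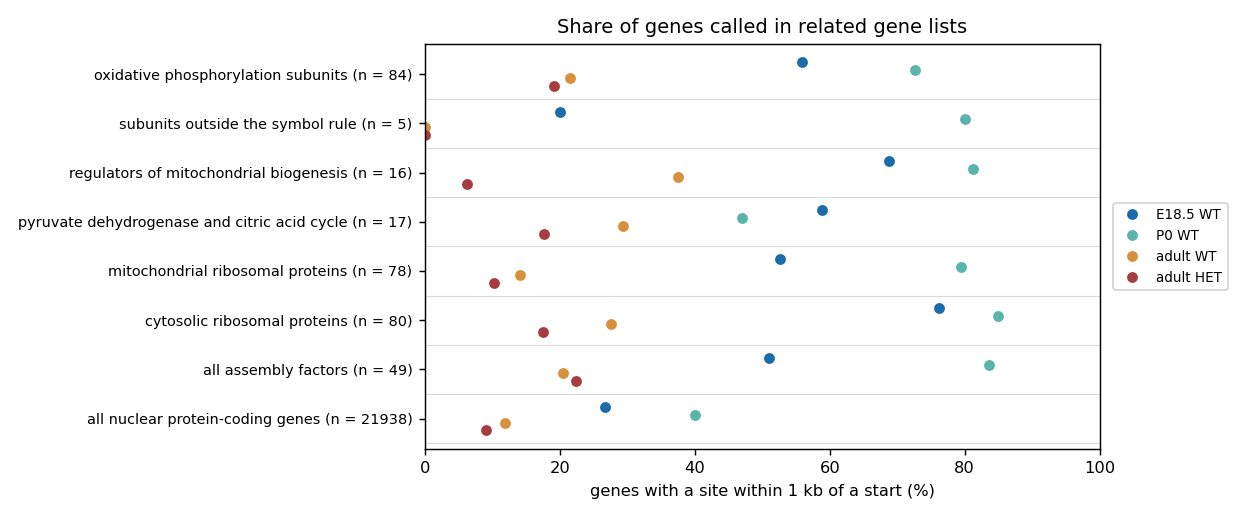
Points give the share of genes in each list with a MYT1L site within 1 kb of a start, in percent, coloured by site list, with the number of genes in brackets and all nuclear protein-coding genes in the last row. The subunit genes (56.0%, 72.6%, 21.4% and 19.0%) lie right of all genes in every list, and at P0 left of the assembly factors (83.7%) and of the mitochondrial and cytosolic ribosomal protein genes (79.5% and 85%).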

How the data were processed

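MYT1L and IgG CUT&RUN libraries were made from mouse cortical cells, 3 per group, and only the 4 merged MYT1L site lists were analysed here. The authors ran the nf-core/cutandrun pipeline, and the labels name build mm10. Which aligner and peak caller it used, at what threshold and with what role for IgG, is not stated in the sources read here. The deposited values are site positions, a start and an end in bp, with no score, count or coverage. Sites were therefore unfiltered, and how many libraries held a site is unknown.

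Starts were those of the GENCODE M21 basic annotation (21938 nuclear protein-coding genes), and sequences were read from GRCm38.p6. Calls, overlaps, widths and words were computed in Python 3.11.15 with numpy 2.4.6 and drawn with matplotlib 3.10.9, and the calling step was checked on simulated sites. Genes described were those called in all 4 lists, in both adult lists, in HET alone or in none, the gene with the most bp per complex and list, the core subunits and the restricted isoforms. Other genes named, such as Ndufa5, Atp5j2, Cox20 and Pdhb, the CpG ratio of 0.3 and the counts without restricted isoforms were chosen after values were seen. The subunit genes, gene lists and words were chosen with earlier results of these data known. Of the assembly factors 1 symbol, Coa1, was not matched. Some results for single genes are not reported here. Nothing was tested, since a merged list has no replicates.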

Additional observations from a re-analysis of the deposited data

How the results depend on the processing

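No paired analysis was possible because each list is merged over its libraries and holds no value per library, and for the same reason no library could be left out. With 500 bp, the site midpoint, or the 5′-most start in place of the main rule, no count of called genes moved by more than 1.5 times, over all 84 genes or in any complex, and the same held for counts of shared sites when the overlap had to cover 50% of the smaller site in place of 1 bp. Keeping only sites wider than the list median gave 23 called genes at E18.5 in place of 47, with 10 in complex I, 1 in II, 2 in III, 5 in IV and 5 in V, and in adult WT 1 in complex III and 1 in IV. Leaving out genes with a neighbouring start gave 0 of 1 in complex II at E18.5 and 0 of 5 in complex III in both adult lists. Within 5 kb 1 complex II gene was called in each adult list, and in HET 2 of complex III and 8 of complex V, while 20.1% and 23.4% of all genes were called in adult WT and HET. At that distance complex IV in adult WT (16.7%) and complex I in HET (8 of 37, 21.6%) lay below all genes. With all annotated transcripts, a setting chosen after seeing the data, 2 complex III genes were called in HET. A window of 250 bp around midpoints held AAAGTT at 16, 19, 3 and 8 sites (30.8%, 24.1%, 16.7% and 44.4%, beside 26.6%, 27.4%, 22.4% and 25.5% of all promoter sites). The lists carry no depth, so a missing site is no evidence of absent binding.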
